A study of Homo sapiens with 6 samples.

Results

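The 8 genes described here, C2, C3, C5, C6, C8A, C8B, C9 and MBL2, encode complement proteins that the liver makes for the blood, and were chosen by name from 20033 protein-coding genes. Untreated HepG2 cells, an established hepatoblastoma line, were studied by CIDOP, in which native mononucleosomes are pulled down with a GST-tagged protein domain instead of an antibody, here the tandem Tudor domain (TTD) from UHRF1. TTD CIDOP, input and H3K9me2 ChIP were sequenced in 2 biological replicates each, 6 libraries in total, and all values below come from the single list of 31569 broad TTD peaks that the authors called on the mean of both TTD replicates. The list gives positions and widths only, so the depth behind a peak is unknown, no error between replicates can be given, and a lack of peaks holds for the authors' cutoff alone. All 6 libraries share one cell line in culture, and the level of the complement RNAs in it was not measured here.

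Complement is a cascade of plasma proteins that marks microbes and damaged cells and can lyse them. It is started by recognition proteins such as mannose-binding lectin, passes through convertases that cut C3 and C5, and ends in the membrane attack complex. Hepatocytes are the main source of most of these proteins, and their genes are typical targets of liver transcription factors. UHRF1 is needed for the maintenance of DNA methylation. Its TTD reads histone H3 methylated at K9, and the study reports stronger binding where K4 is also monomethylated.

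For 6 of the 8 genes, the 5' end of the annotated gene and the start of its Ensembl canonical transcript lie more than 2.5 kb apart, as is the case for 13.1% of all protein-coding genes. The distance was 47906 bp for C6, 29932 bp for C2, 24920 bp for C5, 9912 bp for C3, 8368 bp for C8B and 6829 bp for C9, against 29 bp for C8A and 0 bp for MBL2. Both starts were therefore examined. With the gene 5' end, a TTD peak lay within 2.5 kb of 2 of the 8 genes, C8A and MBL2, and the background over all protein-coding genes was 16.9%. With the canonical start, a TTD peak lay within 2.5 kb of 5 of the 8 genes, C2, C6, C8A, C8B and MBL2, and the background was again 16.9%. The canonical start itself was inside a peak in C6, C8A and MBL2, 3 of the 8 genes, against 2.19% of all protein-coding genes. The gene 5' end was inside a peak in C8A and MBL2, against 2.94%. C2 and MBL2 were shown in the browser views of the study. Among the other 6 genes, a peak lay within 2.5 kb of 1 gene 5' end and of 3 canonical starts. Of these 6 genes, 1 gene 5' end and 2 canonical starts were inside a peak.

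The starts are shown here by the 250 bases before them, to set their CpG dinucleotides beside the presence or absence of a TTD peak. The sequences are those of RefSeq on GRCh38.p14, where 7 of the 8 genes were found, with C3 missing, and they are identical to hg38 at these positions. They are written 5' to 3' on the strand of the gene, with CpG dinucleotides in capitals. The first 3 sequences precede canonical starts that lie inside a TTD peak, and belong to MBL2 (minus strand, chr10:52772785-52773034), C6 (minus strand, chr5:41213533-41213782) and C8A (plus strand, chr1:56854547-56854796).
MBL2: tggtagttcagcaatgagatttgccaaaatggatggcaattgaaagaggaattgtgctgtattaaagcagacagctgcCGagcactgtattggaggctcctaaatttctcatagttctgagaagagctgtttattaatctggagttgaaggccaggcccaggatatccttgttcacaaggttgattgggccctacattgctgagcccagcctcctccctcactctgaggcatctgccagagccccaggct
C6: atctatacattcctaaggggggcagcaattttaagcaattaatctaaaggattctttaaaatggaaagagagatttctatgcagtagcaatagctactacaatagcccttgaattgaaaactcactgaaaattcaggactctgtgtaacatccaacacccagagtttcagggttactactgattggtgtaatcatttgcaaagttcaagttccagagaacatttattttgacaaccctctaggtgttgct
C8A: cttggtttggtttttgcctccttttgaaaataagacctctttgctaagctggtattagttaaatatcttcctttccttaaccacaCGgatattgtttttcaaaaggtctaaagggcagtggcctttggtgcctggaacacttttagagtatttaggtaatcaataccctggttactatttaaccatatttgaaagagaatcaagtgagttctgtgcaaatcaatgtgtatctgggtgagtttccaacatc
The next 3 sequences precede starts without a TTD peak within 2.5 kb. They belong to the upstream start of C2 (plus strand, chr6:31897533-31897782), the upstream start of C5 (minus strand, chr9:121074866-121075115) and the canonical start of C9 (minus strand, chr5:39364496-39364745).
C2 upstream start: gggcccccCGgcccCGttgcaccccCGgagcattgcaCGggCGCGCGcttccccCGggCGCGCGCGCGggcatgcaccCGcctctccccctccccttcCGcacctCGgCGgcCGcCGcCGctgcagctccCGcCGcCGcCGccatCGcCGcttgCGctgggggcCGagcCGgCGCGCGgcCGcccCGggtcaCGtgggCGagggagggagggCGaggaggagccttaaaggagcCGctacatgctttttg
C5 upstream start: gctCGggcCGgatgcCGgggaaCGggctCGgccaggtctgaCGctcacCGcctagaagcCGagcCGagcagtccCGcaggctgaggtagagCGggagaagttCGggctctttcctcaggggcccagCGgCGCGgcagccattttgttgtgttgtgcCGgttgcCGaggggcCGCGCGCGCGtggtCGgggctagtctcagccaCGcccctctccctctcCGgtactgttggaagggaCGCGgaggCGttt
C9: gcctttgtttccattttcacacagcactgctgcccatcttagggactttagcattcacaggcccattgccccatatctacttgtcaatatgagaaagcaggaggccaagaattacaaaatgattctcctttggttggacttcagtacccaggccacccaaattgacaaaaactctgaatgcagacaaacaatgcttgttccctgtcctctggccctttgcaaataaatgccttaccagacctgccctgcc
The upstream starts of C2 and C5 hold 38 and 28 CpG dinucleotides in these 250 bases, more than 96.7% and 84.1% of the 35116 RefSeq promoters. MBL2 and C8A have 1 each, C6 has 0 and C9, which has no peak within 2.5 kb of this start, has 0 as well. Further starts without a peak within 2.5 kb are not printed. They held 0 (canonical start of C5), 1 (upstream start of C6) and 6 (a second start of C2). Of the starts with a peak that are not printed, the canonical start of C8B held 0 and a second start of MBL2 held 3. A low number of CpG dinucleotides thus occurred with and without a peak.

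Over the 1 kb around each start, the CpG observed/expected ratio was measured for all genes. At the canonical starts it ranged from 0.0703 in C3 to 0.285 in C2, so that all 8 fell into the lowest quartile of protein-coding genes, which ends at 0.407. Within this quartile of 5009 genes, 14.1% had a TTD peak within 2.5 kb of the canonical start, the lowest share of the 4 quartiles, against 17.8%, 19.6% and 16.3% in the quartiles of increasing ratio. The start itself was inside a peak for 5.99% of the genes in this quartile, the highest share, against 1.58%, 0.779% and 0.399% in the others. At the gene 5' ends, the ratio was 0.738 for C2 and 0.813 for C5, and between 0.137 and 0.329 for the other 6 genes. At C2 and C5 the change from the 5' end to the canonical start therefore went along with a lower ratio and a nearer peak, from 21946 to 347 bp for C2 and from 18995 to 3996 bp for C5. C6 moved from a ratio of 0.328 and a distance of 44768 bp to 0.0796 and the inside of a peak. In C3 the ratio also fell, from 0.329 to 0.0703, and the nearest peak came closer, from 126502 to 116590 bp, which is still more than 100 kb away. In C8B the nearest peak came closer, from 2953 to 946 bp, with a ratio of 0.137 at both starts, and in C9 the ratio was higher and the peak farther away at the canonical start. Across the canonical starts, the lowest ratio, in C3, went with the most distant peak. The part of the CpG content in the position of the peaks was not tested.

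**Figure D1:**
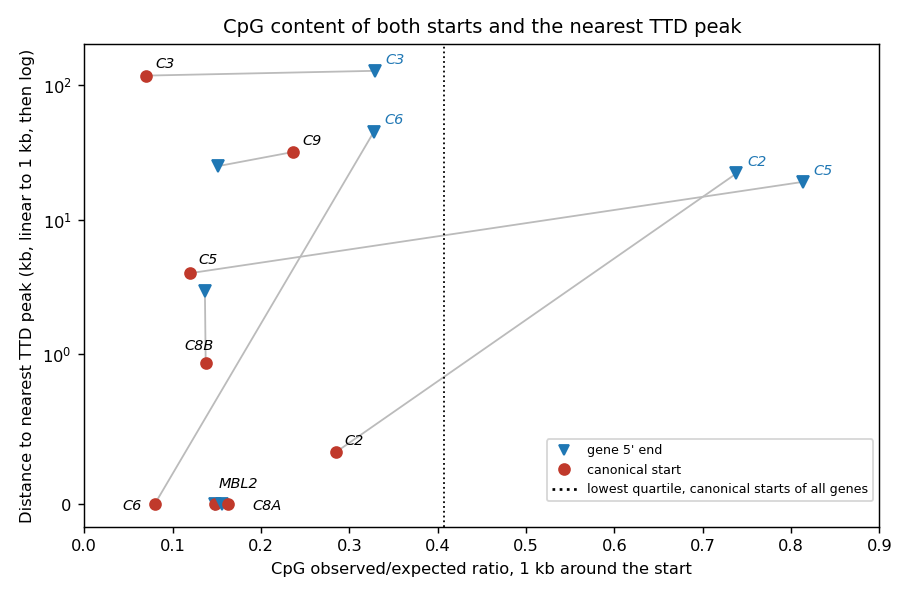
CpG observed/expected ratio in the 1 kb around the gene 5' end (blue triangles) and the canonical start (red circles) of the 8 genes, against the distance to the nearest TTD peak in kb, on an axis that is linear up to 1 kb and logarithmic above; grey lines join both starts of a gene and the dotted line marks the ratio of 0.407 at the end of the lowest quartile. The canonical starts all lie left of the line, with distances from 0 bp in C6, C8A and MBL2 to 116590 bp in C3.

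The recognition protein of the group is mannose-binding lectin, which binds sugars on microbial surfaces and activates the lectin pathway. Its gene MBL2 (chromosome 10, 52765380 to 52772784, minus strand) is 7.41 kb long and lies whole inside a single TTD peak of 27360 bp. The peak extends 5176 bp beyond the start and 14779 bp beyond the end of the gene, and all 5 exons of the canonical transcript are in it. It ranks 24 of 31569 peaks by width. A protein-coding gene wholly inside 1 peak was found 34 times, or for 0.170% of the genes, and 11 of these also had the whole 5 kb around the gene 5' end covered. Only MBL2 and 1 other gene of these 11 were as long as MBL2. Among protein-coding genes 0.5 to 2 times as long as MBL2, 12.5% contained a peak at all.

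Around MBL2, 5 peaks covered 19.1% of the 100 kb on each side of the start, and 2.79% of all genes reached this cover. No other protein-coding gene lies within 100 kb of MBL2, and 80.6% of the covered bases were outside protein-coding genes. On the 3' side, peaks of 470 and 5600 bp followed the large one, and on the 5' side peaks of 2050 and 2690 bp began 12047 and 90007 bp before the start. The 5 protein-coding genes closest to MBL2 in the 3 covers together, gene body, 5 kb around the gene 5' end and 100 kb on each side, were ODAM, KRTAP2-3, H4C4, RNASE8 and LEAP2. Their Euclidean distances from MBL2 were 0.100, 0.326, 1.99, 2.70 and 5.32 percentage points, over this 1 peak list. Of these, ODAM with 8852 bp is longer than MBL2, while H4C4 measures 403 bp.

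The convertase components are C2, the protease of the classical and lectin pathway convertases, and C3, the central protein of the cascade and the most abundant in plasma. C2 (chromosome 6, 31897785 to 31945673, plus strand) contained 3 peaks over 47.9 kb, which covered 16.9% of it. No peak was listed at its 5' end, where the gene starts 87 bp from EHMT2, which encodes the H3K9 methyltransferase G9a, and close to ZBTB12. The nearest peak to the start of EHMT2 was 22033 bp away and to that of ZBTB12 17645 bp. The canonical start of C2 lies at position 31927717, and a peak of 1650 bp ended 347 bp before it, from 31925721 to 31927370. The first 2.5 kb downstream of this start were free of peaks, so that all of the 33.0% cover of the 5 kb window was on the upstream side.

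Further downstream in C2, a peak from 31940931 to 31945650 touched 9 of the 18 exons of the canonical transcript, exons 10 to 18. Its last base is the first base of CFB, the gene of factor B, which is the counterpart of C2 in the alternative pathway. An annotated readthrough gene (ENSG00000244255) overlaps the same peak. The canonical start of CFB was 445 bp from the nearest peak, and the 5 kb around it were covered to 73.0%. Exons of C2 were covered to 51.1% and its introns to 22.1%. Within 100 kb of the canonical start, 10 peaks covered 20.04%, which 2.39% of genes reached, but only 20.2% of the covered bases were in C2 itself and 57.9% in other protein-coding genes, among them the near-identical C4A and C4B, between which the placing of reads is uncertain. Chromosome 6 had the densest peaks of the chromosomes concerned, with 16.7 per Mb. Peaks covered 5.33% of its length, against 1.26% to 3.17% for the others.

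C3 (chromosome 19, 6677704 to 6730562, minus strand) contained no TTD peak over 52.9 kb. None was listed within 100 kb of either start, and the nearest one was 126502 bp from the gene 5' end and 116590 bp from the canonical start. Of genes 0.5 to 2 times as long, 43.0% contained a peak. The background for a peak within 100 kb was 77.9% for either start, and 7 of the 8 genes had one. Without C2 and MBL2, the count was 5 of 6. Chromosome 19 is gene-dense and had 5.97 peaks per Mb, with 1.26% of its length covered. Of the 6 other protein-coding genes that come within 100 kb of C3, CD70 alone contained peaks, with 7.17% cover, at the far side of TNFSF14. All 25 annotated transcript starts of C3 were without a peak within 2.5 kb.

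**Figure D2:**
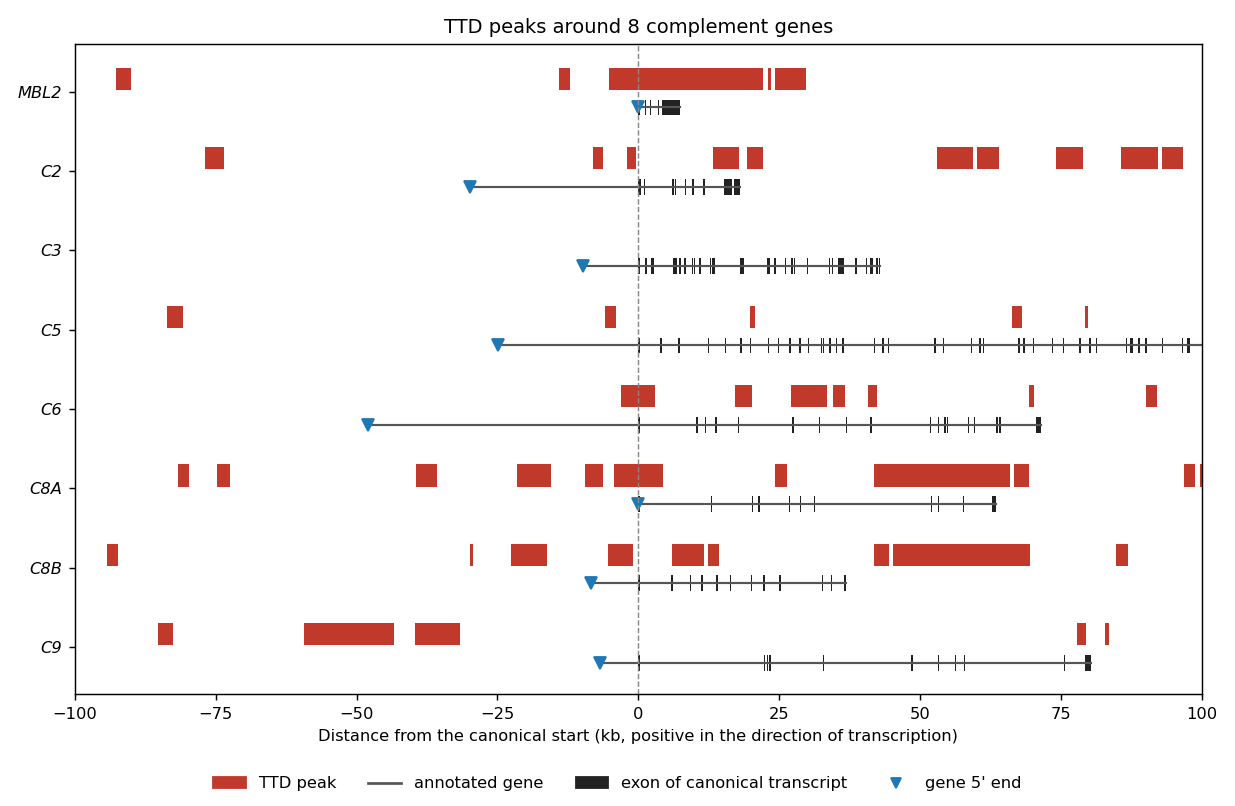
TTD peaks (red) and gene structure within 100 kb of the canonical start of each gene, in kb, positive in the direction of transcription; grey lines are the annotated genes, black blocks the exons of the canonical transcript and blue triangles the gene 5' ends. MBL2 lies inside 1 peak of 27360 bp, the peaks near the canonical starts of C2, C6 and C8B are downstream of the blue triangle, and the row of C3 has no peak.

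Cleavage of C5 starts the terminal pathway and releases the anaphylatoxin C5a. C5 (chromosome 9, 120932987 to 121075195, minus strand) is the longest gene of the group, with 142 kb. It contained 4 peaks, of 540, 890, 1890 and 1930 bp, all narrower than the median peak of 2250 bp, and they covered 3.69% of the gene. Among genes 0.5 to 2 times as long, 67.5% contained a peak and 33.8% had at least this cover. The widest of the 4 peaks lay 3996 bp upstream of the canonical start, at 121054271 to 121056200, and was therefore outside the 5 kb window. Of 13 annotated transcript starts, 1 had a peak within 2.5 kb. The 5' end of C5 overlaps that of CNTRL, a centrosome gene, which starts 535 bp away and had no peak at its start.

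C6 is the first protein to bind the C5b fragment. Its gene (chromosome 5, 41142116 to 41261438, minus strand) contained 6 peaks, the most of the group, and they covered 16.9% of 119 kb. Among genes 0.5 to 2 times as long, 63.5% contained a peak, but 5.57% had at least this cover. The peak over the canonical start measured 6140 bp, from 41210531 to 41216670, reached 3.00 kb downstream of the start, and contained the first exon. The other 5 peaks followed downstream, over exons 5, 6, 7 and 9 and in introns, and none lay in the 44768 bp between this peak and the gene 5' end. Within 100 kb of the canonical start, 91.1% of the bases in peaks were in C6 itself. The protein-coding neighbours MROH2B and PLCXD3 had their nearest peaks 50179 and 93331 bp from their starts.

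C8A and C8B encode the alpha and beta chains of C8, which insert the growing complex into the membrane. They lie side by side on chromosome 1 and are transcribed towards each other, C8A from 56854768 to 56918223 on the plus strand and C8B from 56929207 to 56974383 on the minus strand. C8A was covered to 44.5%, which 1.01% of genes reached, and C8B to 26.5%, which 2.62% reached. In all, 7 peaks covered 38.03% of the 120 kb from the start of C8A to the 5' end of C8B, against 3.08% of chromosome 1. In C8A, a peak of 8730 bp lay over the start, and reached 4.36 kb downstream of it. A peak of 24280 bp, number 44 of the list by width, covered the 3' part with exons 8 to 11 and ended at position 56920820, beyond the gene, in the 11.0 kb that separate the genes.

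C8B differed from C8A at its start. A peak of 4470 bp ended 946 bp before the canonical start, from 56966961 to 56971430, and the 5 kb window was covered to 31.1%, as in C2 on the upstream side alone. Peaks of 5570 and 1930 bp covered exons 3 to 5 downstream. For both genes, the 100 kb on each side had the highest cover of the group, with 28.7% for C8A and 25.1% for C8B, which 0.839% and 1.21% of genes reached. Within 50 kb of the gene 5' end this order did not hold, as C8A with 32.2% was below MBL2 with 35.5%, and C8B with 19.1% was also below C9 with 21.5%. The values for 100 kb are not independent, since each of these windows includes some of the peaks in the other gene. Within 100 kb of the canonical start of C8B, 23.8% of the bases in peaks were in C8B itself and 52.8% in other protein-coding genes. For C8A these shares were 49.2% and 18.0%. FYB2 and DAB1, on either side of the pair, were covered to 7.95% and 3.302%.

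C9 is the protein that polymerizes into the pore. Its gene (chromosome 5, 39284140 to 39371324, minus strand) contained a single peak of 1610 bp, from 39284991 to 39286600, in the last of 11 exons and the intron before it, and 1.85% of the gene was covered. Among genes 0.5 to 2 times as long, 43.7% had at least this cover. No peak was listed within 24827 bp of the gene 5' end or 31656 bp of the canonical start. The cover of 14.4% within 100 kb came mostly from elsewhere, with 5.57% of the bases in peaks in C9 itself and 92.0% in other protein-coding genes. Most of these were in DAB2, a clathrin adaptor gene that ends just upstream of C9 and was covered to 29.3% by peaks of up to 15980 bp. C9 and DAB2 thus adjoin on the same strand with a different density of peaks.

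**Figure D3:**
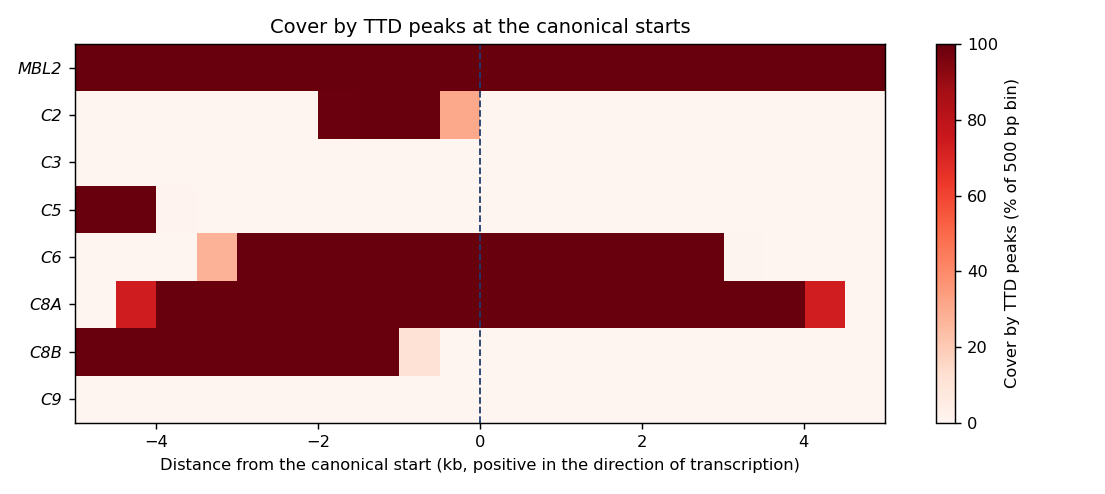
Cover by TTD peaks in bins of 500 bp from 5 kb upstream to 5 kb downstream of the canonical start of each gene, from white (0%) to dark red (100%). MBL2, C6 and C8A are covered on both sides of the start, C2 and C8B on the upstream side only, C5 only beyond 3996 bp upstream, and C3 and C9 not at all.

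Placed side by side at the canonical start, the genes fell into 3 arrangements. The 5 kb window was covered to 100% in MBL2, C6 and C8A, which 0.250% of protein-coding genes reached. C2 and C8B had 33.0% and 31.1%, all upstream, and 6.03% and 6.64% of genes had at least as much. C3, C5 and C9 had 0%. In the gene body, 7 of the 8 genes had a peak, against 34.2% of all protein-coding genes. Without C2 and MBL2, the count was 5 of 6. The 8 genes are longer, with a median of 58158 bp against 27471 bp, and among genes 0.5 to 2 times as long the share with a peak was 40.9% for C2, 47.3% for C8A, 39.5% for C8B and 55.4% for C9, besides the shares given above for the other 4. The order of cover was MBL2 (100%), C8A (44.5%), C8B (26.5%), C6 (16.9%), C2 (16.9%), C5 (3.69%), C9 (1.85%) and C3 (0%). C6 and C2 were less than 0.1 percentage points apart, and with 1 pooled list no spread is at hand to say which other neighbours in this order differ. The median over the group was 16.9%, and over all genes 0%, with the 90th percentile at 10.1%.

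**Figure D4:**
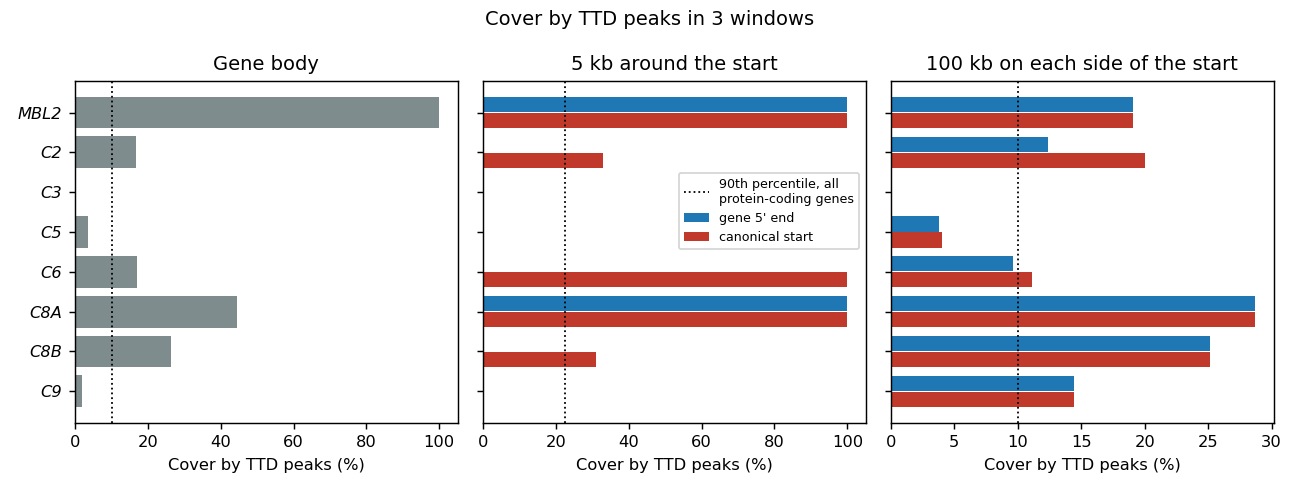
Percent of the gene body, of the 5 kb around the start and of the 100 kb on each side of the start that lies in TTD peaks, for the gene 5' end (blue) and the canonical start (red); grey bars do not depend on the start, and the dotted lines mark the 90th percentile of all protein-coding genes, at 10.1%, 22.4% and 10.0%. The last 2 of these values are for the canonical start, and for the gene 5' end they were 23.0% and 9.99%. In the middle panel C2, C6 and C8B have red bars without blue ones, and C3, C5 and C9 have neither.

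C2 and MBL2 appear in the browser views of the study and were set beside the other 6 genes. At the gene 5' end, C2 had no cover, like C3, C5, C6, C8B and C9, and MBL2 had 100%, like C8A. There the median of the 6 others was 0%, and at the canonical start 15.5%, with a range from 0% to 100% in both cases. In the gene body C2, with 16.9%, was close to C6, but with peaks at or above the median width alone C2 had 9.86% and C6 13.1%. MBL2, with 100% in both cases, was above all 6 others, which ranged from 0% to 44.5% with a median of 10.3%. In the 100 kb on each side of the canonical start, C2 with 20.04% and MBL2 with 19.1% were both between C9 with 14.4% and C8B with 25.1%. With the gene 5' end, the cover of C2 was 12.4%, below that of C9, while the values of MBL2, C8B and C9 were the same. The place of MBL2 depended on the window, as its cover was 35.5%, above the other 7 genes, within 50 kb of the gene 5' end, and 10.7% within 200 kb. Since both genes were chosen for display and only 6 remain, no test was made of the difference.

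The peaks in the gene bodies were 21 in all, between 540 and 27360 bp wide, with a median of 2120 bp against 2250 bp in the whole list. Of these, 13 touched an exon of a canonical transcript and 8 did not. Of the exon length of the 8 canonical transcripts, 28.4% was covered, and of the summed length of the genes 14.6%. Over all protein-coding genes, these values were 2.40% and 3.55%. The exon value of the group depends on few genes, with 100% in MBL2, 56.9% in C8A and 51.1% in C2, against 4.10% in C5 and 0% in C3.

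In the 250 bases before the 11 RefSeq starts of the 7 genes, motifs of liver transcription factors were searched on both strands. The FOXA motif TGTTTAC, present in 2.98% of all RefSeq promoters, was found 47 bases before the canonical start of C8B and 141 bases before a second start of MBL2, both on the strand of the gene. The C/EBP motif TTGCNNAA, present in 9.05%, was found before both starts of C6 and, on either strand, before the canonical start of MBL2. The HNF4 motif CAAAGTCCA (0.325% of promoters) and the HNF1 motif, a palindrome (0.0057%), were not found. No matches overlapped each other.

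The other complement genes, 44 in a list ordered by role, are given here by counts. A peak lay within 2.5 kb of the canonical start of 10 genes and of the gene 5' end of 8, with a background of 16.9% for each. The body of 17 genes contained a peak, with a background of 34.2%, and 30 genes had one within 100 kb of the gene 5' end, with a background of 77.9%. For the 44 genes as a whole, these counts are near the background, and the last is below it. The median cover was 0% for the gene body and at the start, as over all genes, and 1.73% within 100 kb, against 2% over all genes. The 10 genes with a peak at the canonical start included 3 of 5 other genes grouped with the convertase components. These 3, C4A, C4B and CFB, lie close together beside C2 on chromosome 6, so they are not independent. The 10 also included 6 of 14 soluble regulators, 1 of 12 other initiators, and none of the 2 other terminal genes C7 and C8G or of the 11 membrane regulators and receptors.

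The 5 other genes with the largest cover of the 5 kb around the gene 5' end were CFHR2 (83.7%), C4BPA (82.4%), C4B (78.9%), C4A (78.5%) and CFB (73.0%). CFHR2 is a relative of factor H, and C4BPA encodes the alpha chain of C4b-binding protein, which restrains the convertase that contains C2. C4A and C4B encode the C4 that pairs with C2 in this convertase, and each contained 3 peaks covering 48.2% and 47.6% of the gene. As they are near-identical copies, reads could be assigned to either, and how reads that match both were treated is not given in the sources used here, so that the separate peaks over C4A and C4B, also where they enter the 100 kb around C2, are uncertain. Among the other recognition proteins, the genes of C1q (C1QA, C1QB and C1QC), the ficolins FCN1 and FCN2 and the collectin COLEC10 had no peak within 100 kb of either start. The collectin COLEC11 had 6 peaks there, with a cover of 6.55%, and the ficolin FCN3 had 1 peak with 1.49%, against 5 peaks and 19.1% for MBL2.

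**Figure D5:**
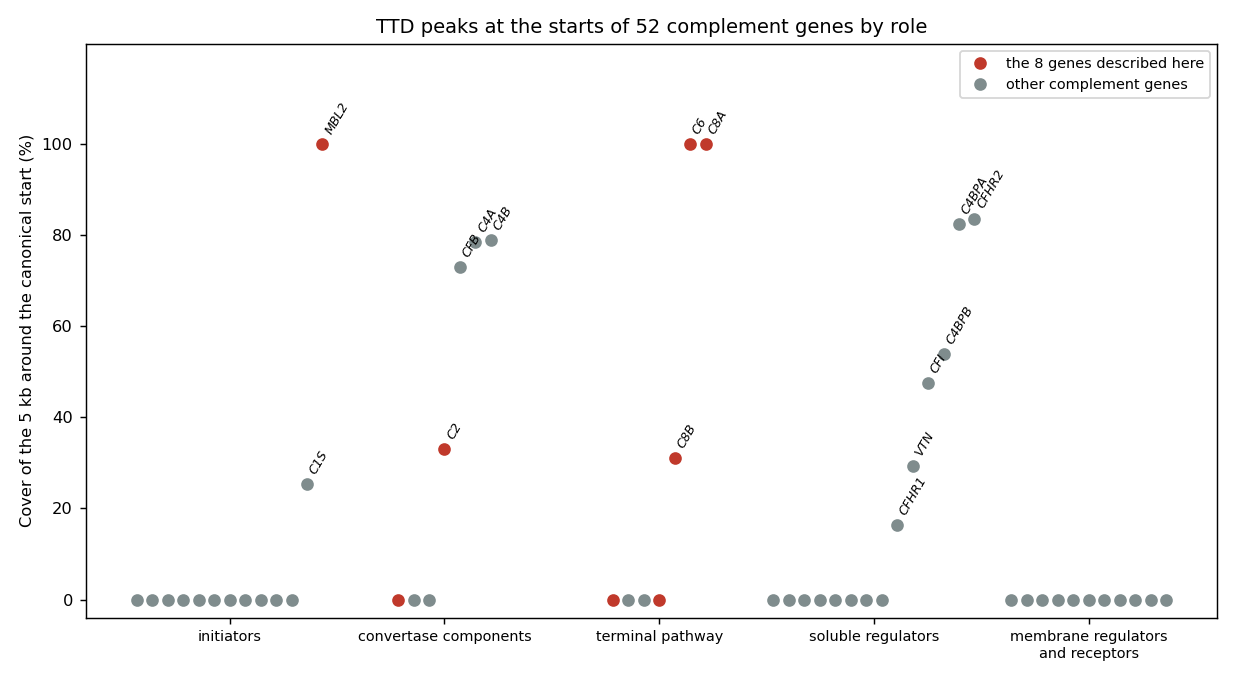
Cover of the 5 kb around the canonical start by TTD peaks for 52 complement genes grouped by role, with the 8 genes described here in red and the others in grey; genes above 0% are named. Among the 8 genes, MBL2, C6 and C8A stand at 100% and C2 and C8B at 33.0% and 31.1%, and all 11 membrane regulators and receptors are at 0%.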

How the data were processed

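Native mononucleosomes of HepG2 cells were pulled down with GST-tagged TTD in 2 biological replicates. According to the methods and the submitters' processing notes, the authors used Trimmomatic 0.38, FastQC 0.72, HISAT2 2.2.1 on hg38, deepTools 3.3.2 (RPKM coverage in bins of 10 bp without blacklisted regions, averaged over both replicates) and MACS2 2.1.1 for broad peaks, and curated the peaks by hand. No input track and no correction for copy number are named for the peak calling. The deposited list has 4 columns, with the position and width of each peak in bp and no score. The libraries of H3K9me2 ChIP and input were not analysed here.

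Positions lie on a 10 bp grid. Genes were taken from GENCODE release 44 on hg38. Cover is the percent of a window in peaks, and 1 bp of overlap counts as a peak in the window. The background is the same measure over 20033 protein-coding genes. No test was made, because the replicates had been pooled and the genes share 1 list. The named genes are the 8 genes, the 5 other complement genes with the largest cover at the gene 5' end, neighbours that share a peak with one of the 8, and the 5 genes closest to MBL2 in 3 covers. Genes near the starts (EHMT2, ZBTB12, CNTRL, DAB2 and other neighbours), the C1q, ficolin and collectin genes, C7, C8G and the motifs were chosen after the values were seen. The members and lists were chosen with earlier results of these data known. The interval arithmetic was tested on simulated data. Python 3.11.15, numpy 2.4.6, pandas 2.3.3, scipy 1.17.1, pysam 0.24.0 and matplotlib 3.10.9 were used.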

Additional observations from a re-analysis of the deposited data

How the results depend on the processing

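The choice of the start moved the result at the start most. A TTD peak lay within 2.5 kb of 2 of the 8 genes at the gene 5' end, of 5 at the canonical start and of 6, with C5 added, when any annotated transcript start was taken, for which the background was 24.9%. Genes with many annotated starts have more chances in the last setting. The background was not matched for their number, which ran from 2 in MBL2 to 25 in C3. By construction, the canonical start shifts the window by more than 2.5 kb in 6 genes. The median cover over the 6 genes other than C2 and MBL2 was 0%, 15.5% and 16.6% in these 3 cases. Combined with the canonical start, in settings chosen after seeing the data, the count was 4 with peaks at or above the median width (C2 is lost, background 7.31%), 4 with at least 50% overlap (C8B is lost, background 12.5%), 5 with joined peaks (16.9%), 5 with 1 kb on each side (10.8%) and 6 with 5 kb on each side (C5 is added, background 22.0%). The counts for the gene body (5 to 7) and for the 100 kb on each side (7 or 8) stayed within 1.5 times of the 7 reported. The lower value for the gene body came from the wider peaks, with which C5 and C9 contained none and the background fell from 34.2% to 20.5%. The gene body cover of C2 fell from 16.9% to 9.86% with them, and its cover of the 100 kb on each side rose from 12.4% to 20.04% with the canonical start. The cover of the 100 kb moved by over 1.5 times also in MBL2, from 19.1% to 35.5% with 50 kb and 10.7% with 200 kb, in C6, from 9.65% to 5.23% with 50 kb, in C9, from 14.4% to 9.03% with 200 kb, and in C5, from 3.78% to 1.42% with the wider peaks. For the 100 kb, the count was 7 with the wider peaks (background 53.1%) and with 50 kb (61.6%), and 8, with C3 added, with 200 kb (90%), with 100 kb on each side of the gene body (82.4%) and with any annotated start (80.9%). No paired analysis was possible because the list holds 1 pooled set of peaks without values per replicate, and for the same reason no replicate could be left out. Depth is unknown, so a missing peak cannot be told apart from a weak one.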
